A study of Mus musculus with 12 samples.

Results

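The levels of 9 genes tied to FOXO transcription factors and to restraint of phosphoinositide 3-kinase (PI3K) were compared in donor T cells sorted from the liver of mice after allogeneic hematopoietic cell transplantation (HCT). The genes were Foxo1, Foxo3, Pik3ip1, Btg1, Btg2, Tob1, Sesn1, Tsc1 and Irs2. They were taken by symbol from a table of read counts for 25078 genes. All 9 were found, and all 9 passed the filter on low counts in both CD4+ and CD8+ T cells.

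BALB/c (H-2d) recipients were irradiated and given T cells from C57BL/6 (H-2b) donors together with T cell-depleted bone marrow from WT C57BL/6 donors. The T cell donors were WT, STAT3-/- (Stat3 fl/fl with Cre driven by the CD4 promoter, so that Stat3 was deleted in T cells) or STAT3-/-PD-1-/- (the same conditional Stat3 deletion on a germline PD-1-/- background). On day 6 after HCT, donor T cells (H-2Kb+ TCRβ+) were sorted from the liver as CD4+ or CD8+ cells. Each of the 3 genotypes had 2 libraries per subset, which made 12 libraries in 6 groups. Per the study's methods each library held cells pooled from 3 recipients, so the spread between libraries is that between pools. Library totals ran from 21676125 to 24551477 reads counted on genes, with a median of 23442480. There was no group with PD-1 deletion alone, so a difference between STAT3-/-PD-1-/- and WT T cells is that of both deletions together.

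Naive and resting T cells are held in quiescence by active programs. FOXO transcription factors stay in the nucleus while PI3K and AKT signaling is low, and there they drive genes of cell cycle arrest, survival and lymphoid homing. When antigen and growth signals activate PI3K, AKT phosphorylates FOXO proteins and moves them to the cytoplasm, and mTORC1 promotes growth. The genes followed here act at several steps of this circuit: Pik3ip1 restrains PI3K at the membrane, Sesn1 and Tsc1 restrain mTORC1, Irs2 carries insulin and IGF signals to PI3K, and Btg1, Btg2 and Tob1 are antiproliferative proteins that bind the CCR4-NOT deadenylase and promote mRNA decay.

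Levels are given as CPM, the read count of a gene relative to the depth of its library, with depth scaled by trimmed mean of M values (TMM) over the 12 libraries. Log2 fold changes carry their standard error (SE) and the p-value of edgeR's quasi-likelihood test, adjusted by the Benjamini-Hochberg method over all genes tested, and a gene was called changed at an adjusted p under 0.05. In bulk libraries, fewer cells with a transcript and less of it per cell cannot be told apart.

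The labels were first checked against the targeted genes and the sorted subsets. Stat3 stood at 368 and 467 CPM in WT CD4+ T cells, at 140 and 164 CPM in STAT3-/- cells and at 157 and 219 CPM in STAT3-/-PD-1-/- cells. The CD8+ T cells held Stat3 at 397 and 384 CPM in WT, at 149 and 135 CPM in STAT3-/- and at 154 and 235 CPM in STAT3-/-PD-1-/- cells. All 8 libraries with the Stat3 deletion were below all 4 WT libraries. Pdcd1, which encodes PD-1, stood at 55.1 and 26.0 CPM in STAT3-/-PD-1-/- CD4+ T cells against 247 and 235 CPM in WT and 261 and 323 CPM in STAT3-/- cells. Among CD8+ T cells Pdcd1 stood at 93.5 and 65.5 CPM in STAT3-/-PD-1-/- cells against 376 and 307 CPM in WT and 424 and 454 CPM in STAT3-/- cells. The counts cover whole genes, so the reads that remained for Stat3 and Pdcd1 may come from undeleted exons or undeleted cells, which cannot be told apart here. Cd4 was at 1241 to 1887 CPM in the CD4+ libraries and at most 2.73 CPM in the CD8+ libraries. Cd8a was at 589 to 1339 CPM in the CD8+ libraries and at most 5.64 CPM in the CD4+ libraries, and Cd3e lay between 533 and 736 CPM in all 12.

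Per kilobase of exon, the 9 genes spanned a wide range of abundance. The median level over the 12 libraries was 86.1 CPM per kilobase for Btg1, 50.8 for Btg2, 30.7 for Foxo1, 26.1 for Pik3ip1, 15.7 for Tob1, 11.2 for Sesn1, 9.49 for Foxo3, 6.54 for Tsc1 and 0.293 for Irs2. The ranges over libraries of neighbors in this order overlapped, except that Irs2 (at most 1.92) lay below Tsc1 (at least 5.86) in all 12. Irs2 was the scarcest, with 8 to 294 reads per library, whereas Btg1 had 4048 to 22821 reads.

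As compared with WT T cells, STAT3-/-PD-1-/- T cells had a lower level of all 9 genes in both subsets, and 1 of them, Btg1, passed the test in each subset. In CD4+ T cells 1 of 9 genes (Btg1) fell, where 5.65% of all genes tested fell and 12.9% were called in either direction. Likewise 1 of 9 genes (Btg1) fell in CD8+ T cells, where 8.21% of all genes tested fell and 17.2% were called. The 9 genes had a median log2 fold change of -0.48 (CD4+) and -0.92 (CD8+), beside -0.01 and 0.00 over all genes tested. This median depended on single libraries: it was -0.72 without STAT3-/-PD-1-/- replicate 2 (CD4+), and for CD8+ T cells -0.33 without WT replicate 1 and -0.55 with the replicate number as a block. Both STAT3-/-PD-1-/- libraries lay below both WT libraries for 7 of the 9 genes in CD4+ T cells, as they did for 29.5% of all genes tested. They did so for 5 of the 9 genes in CD8+ T cells, as they did for 29.8% of all genes tested.

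As compared with STAT3-/- T cells, STAT3-/-PD-1-/- T cells again had lower levels of all 9 genes in both subsets. No gene of the 9 passed the test in CD4+ T cells, where 5.03% of all genes tested fell and 11.1% were called. However, 7 had an unadjusted p under 0.05 by edgeR's quasi-likelihood test, as had 3512 of all 11959 genes tested. DESeq2 called 5 of the 9 lower, and over all genes it called 2100, of which 1028 were lower. Among CD8+ T cells 1 of 9 genes (Btg1) fell, where 8.05% of all genes tested fell and 16.8% were called. Their median log2 fold change was -0.73 (CD4+) and -0.68 (CD8+), beside -0.01 and 0.00 over all genes tested. Both STAT3-/-PD-1-/- libraries lay below both STAT3-/- libraries for 7 of the 9 genes in each subset, as they did for 30.8% of all genes tested in CD4+ and 31.6% in CD8+ T cells. These comparisons share the STAT3-/-PD-1-/- libraries with those against WT and are not independent of them.

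More of these genes passed the test when the replicate number was taken into the fit. In the sample titles, the libraries numbered 1 form 1 run of consecutive library identifiers and those numbered 2 form another, in both subsets. With the number as a block, 6 of the 9 genes fell against WT in CD4+ T cells (Foxo1, Foxo3, Btg1, Btg2, Tob1 and Irs2), where 12.2% of all genes tested fell. Against STAT3-/- in CD4+ T cells 7 of the 9 fell (all but Tsc1 and Irs2), where 12.8% of all genes tested fell. For CD8+ T cells the 4 genes Pik3ip1, Btg1, Btg2 and Tob1 fell against WT, where 12.1% of all genes tested fell, and the same 4 fell against STAT3-/-, where 11.9% fell. The blocked fit of a subset had 2 residual degrees of freedom, and that without the block had 3.

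Between STAT3-/- and WT T cells, no difference in these genes passed the test. The calls were 0 of 9 in CD4+ T cells, where 0.334% of all genes tested were called, and 0 of 9 in CD8+ T cells, where 0.0583% were called. Without a block, 0 of the 9 genes in either subset had an unadjusted p under 0.05 by edgeR's quasi-likelihood test. Over all genes tested, 1259 of 11959 (CD4+) and 1315 of 12002 (CD8+) had one. DESeq2 also called 0 of the 9, and over all genes it called 271 (CD4+) and 218 (CD8+). The median log2 fold change of the 9 genes was 0.04 (CD4+) and 0.10 (CD8+). For none of the 9 genes did both STAT3-/- libraries lie below both WT libraries, as they did for 19.3% (CD4+) and 21.1% (CD8+) of all genes tested. Both STAT3-/- libraries lay above both WT libraries for Sesn1 in CD4+ T cells, as they did for 18.8% of all genes tested, and for Sesn1 and Foxo3 in CD8+ T cells, as they did for 22.5%. The replicate block also gave 0 of 9 calls in each subset, where 2.53% (CD4+) and 0.075% (CD8+) of all genes tested were called. With it, 2 of the 9 (Btg1 and Pik3ip1) in CD4+ and 1 (Btg1) in CD8+ T cells had an unadjusted p under 0.05 by edgeR. So had 2089 of all 11959 genes tested in CD4+ and 1794 of 12002 in CD8+ T cells.

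**Figure D1:**
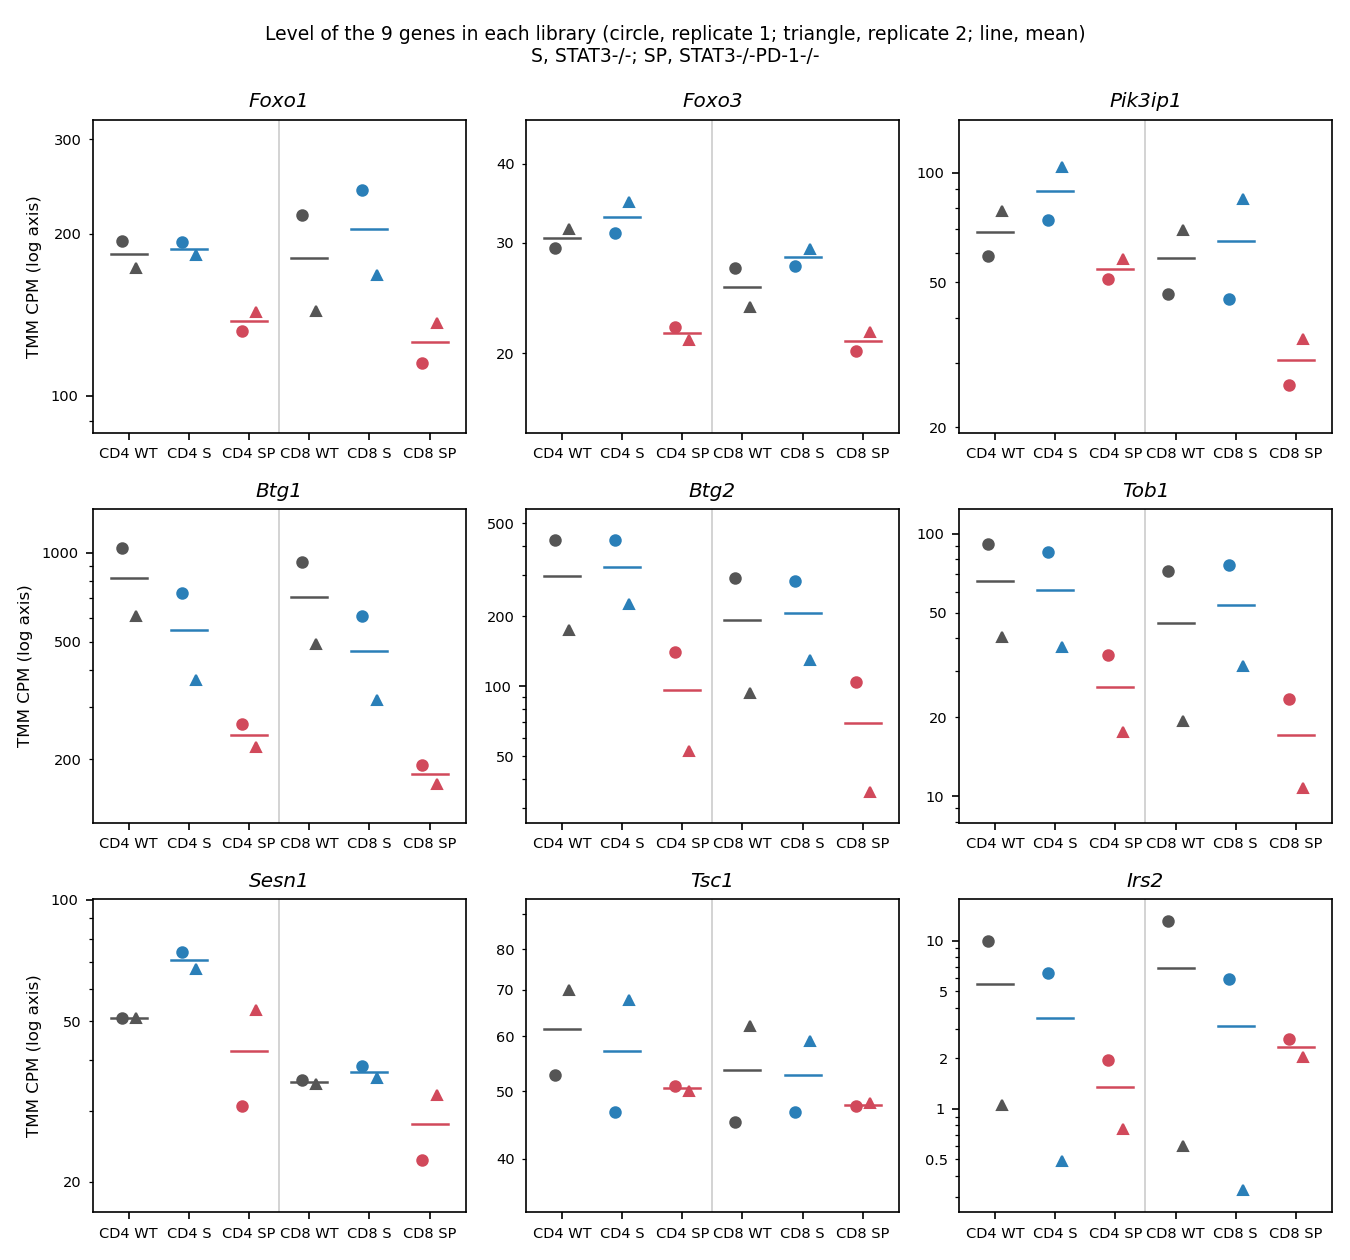
Level of each of the 9 genes (TMM CPM, log axis) in the 12 libraries, by T cell subset and genotype, with circles for replicate 1, triangles for replicate 2 and a line at the mean of each group (n = 2). The STAT3-/-PD-1-/- groups have the lowest mean for every gene in both subsets, both of their Btg1 points lie below all others of the subset, and Irs2 is split by replicate number.

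The FOXO factors were lower in STAT3-/-PD-1-/- T cells by modest amounts that did not pass the test in the main fit (edgeR with TMM scaling and no block). Foxo1 (chr3:52268337-52350109, + strand, GRCm38/mm10), the main FOXO factor of T cells, was at 194 and 173 CPM in WT CD4+ T cells, 193 and 183 CPM in STAT3-/- cells and 132 and 143 CPM in STAT3-/-PD-1-/- cells. Both STAT3-/-PD-1-/- libraries were below the other 4, with a log2 fold change of -0.39 (SE 0.14, adjusted p = 0.117) against WT and -0.43 (SE 0.14, adjusted p = 0.0936) against STAT3-/-. With the replicate block, the adjusted p of Foxo1 in CD4+ T cells was 0.0452 against WT and 0.0333 against STAT3-/-. The CD8+ levels of Foxo1 were 217 and 144 CPM in WT, 242 and 168 CPM in STAT3-/- and 115 and 137 CPM in STAT3-/-PD-1-/- cells. The STAT3-/-PD-1-/- libraries were again the lowest, but WT replicate 2 stood only just above STAT3-/-PD-1-/- replicate 2, and the log2 fold change was -0.51 against WT (SE 0.24, adjusted p = 0.182) and -0.68 against STAT3-/- (SE 0.24, adjusted p = 0.0887). Among 15 settings tried, Foxo1 was called against STAT3-/- in 5 for CD8+ and in 2 for CD4+ T cells. The replicate block (adjusted p = 0.0604 by edgeR) was not among the 5.

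Foxo3 (chr10:42185786-42276742, - strand), a related factor with overlapping targets, had the tightest replicates of the 9, within 0.20 of each other on the log2 scale in every group. It was at 29.5 and 31.5 CPM in WT CD4+ T cells, 31.1 and 34.8 CPM in STAT3-/- cells and 22.1 and 21.04 CPM in STAT3-/-PD-1-/- cells. The CD8+ levels were 27.3 and 23.7 CPM in WT, 27.5 and 29.3 CPM in STAT3-/- and 20.2 and 21.6 CPM in STAT3-/-PD-1-/- cells. The STAT3-/-PD-1-/- libraries were below all others in each subset. The log2 fold change of Foxo3 against STAT3-/- was -0.60 in CD4+ (SE 0.16, adjusted p = 0.0546) and -0.43 in CD8+ T cells (SE 0.14, adjusted p = 0.0770). Against WT it was -0.48 in CD4+ (SE 0.16, adjusted p = 0.0949) and -0.27 in CD8+ T cells (SE 0.14, adjusted p = 0.222). The replicate block gave Foxo3 an adjusted p of 0.0401 against WT and 0.0195 against STAT3-/- in CD4+ T cells, and no call in CD8+ T cells. Foxo3 was called against STAT3-/- in CD4+ T cells in 2 of 15 settings tried, the block being 1 of them.

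Pik3ip1 (chr11:3330731-3342971, + strand), a transmembrane inhibitor of PI3K that T cells shed on activation, was lower in STAT3-/-PD-1-/- T cells of both subsets. The CD4+ levels were 59.2 and 78.6 CPM in WT, 74.2 and 104 CPM in STAT3-/- and 51.0 and 58.0 CPM in STAT3-/-PD-1-/- cells. Its CD8+ levels were 46.5 and 69.8 CPM in WT, 45.1 and 84.7 CPM in STAT3-/- and 26.0 and 35.0 CPM in STAT3-/-PD-1-/- cells. No STAT3-/-PD-1-/- library overlapped the other genotypes of its subset. The log2 fold change in CD8+ T cells was -0.92 against WT (SE 0.33, adjusted p = 0.0997) and -1.08 against STAT3-/- (SE 0.33, adjusted p = 0.0659). In CD4+ T cells it was -0.32 against WT (SE 0.22, adjusted p = 0.400) and -0.69 against STAT3-/- (SE 0.23, adjusted p = 0.0905). Replicate 1 was below replicate 2 in all 6 groups, with a mean difference of -0.50 on the log2 scale. With the replicate block, the adjusted p of Pik3ip1 in CD8+ T cells was 0.00896 against WT and 0.00728 against STAT3-/-, and in CD4+ T cells it was 0.120 and 0.00943.

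**Figure D2:**
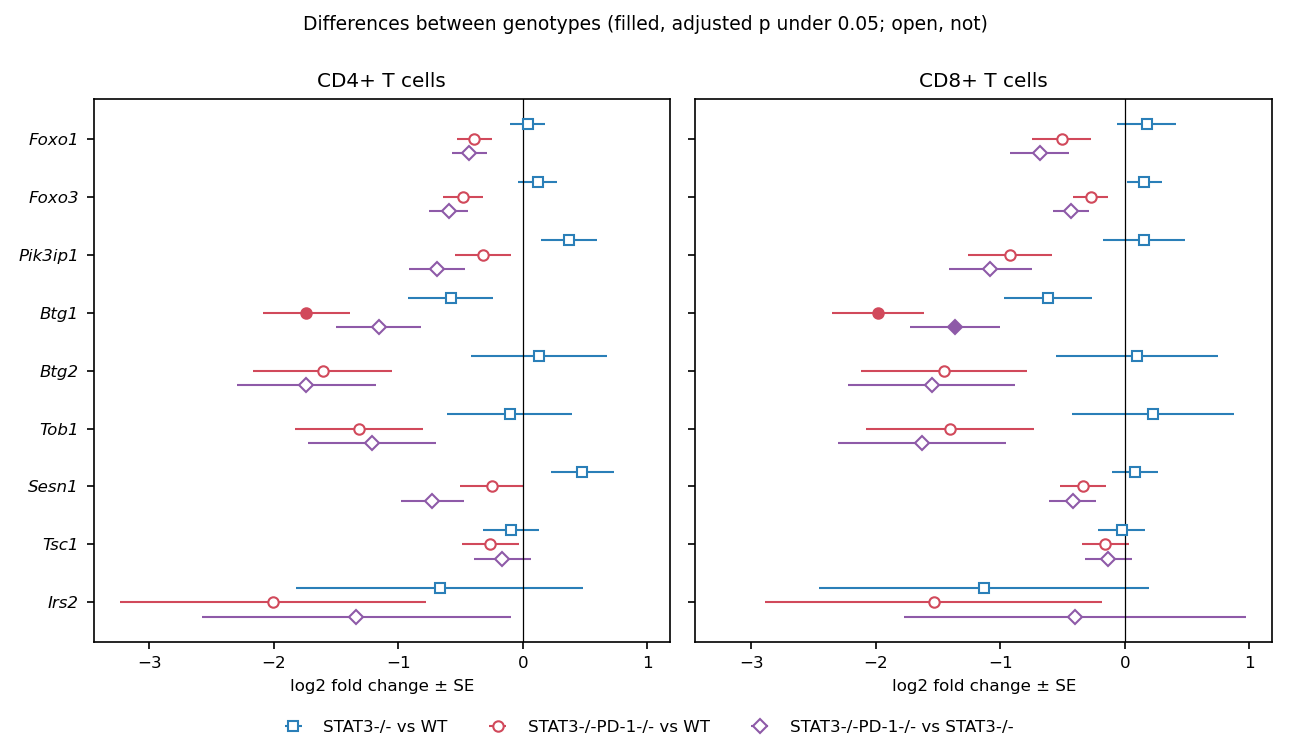
Log2 fold change (x axis) of the 9 genes with its SE in CD4+ and CD8+ T cells, for STAT3-/- against WT (squares), STAT3-/-PD-1-/- against WT (circles) and STAT3-/-PD-1-/- against STAT3-/- (diamonds). Filled symbols, all 3 of them Btg1, have an adjusted p under 0.05, and all circles and diamonds lie left of 0.

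Apart from those of the scarce Irs2, the largest differences of STAT3-/-PD-1-/- T cells from the other genotypes were in the BTG and TOB genes. Btg1 (chr10:96617001-96622811, + strand), an antiproliferative gene that is high in resting lymphocytes, was at 1037 and 610 CPM in WT CD4+ T cells, 730 and 370 CPM in STAT3-/- cells and 264 and 221 CPM in STAT3-/-PD-1-/- cells. Among CD8+ T cells Btg1 was at 929 and 492 CPM in WT, 610 and 318 CPM in STAT3-/- and 192 and 165 CPM in STAT3-/-PD-1-/- cells. The STAT3-/-PD-1-/- libraries were below all others, whereas the STAT3-/- range overlapped that of WT in each subset. With both deletions, CD4+ T cells had a 3.34-fold lower Btg1 level than WT (log2 fold change -1.74, SE 0.35, adjusted p = 0.0206 by edgeR). In the CD8+ subset it was 3.95-fold lower (log2 fold change -1.98, SE 0.37, adjusted p = 0.0149). The group means of Btg1 in WT, STAT3-/- and STAT3-/-PD-1-/- cells were 824 ± 302, 550 ± 254 and 243 ± 30.5 CPM for CD4+ and 711 ± 309, 464 ± 206 and 179 ± 19.1 CPM for CD8+ T cells (SD, n = 2).

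Against STAT3-/- cells, Btg1 was 2.57-fold lower in CD8+ T cells (log2 fold change -1.36, SE 0.36, adjusted p = 0.0430), and its log2 fold change in CD4+ T cells was -1.16 (SE 0.34, adjusted p = 0.0714, or 0.00493 with the replicate block). Its log2 fold change between STAT3-/- and WT was -0.58 in CD4+ (SE 0.34, adjusted p = 0.647) and -0.62 in CD8+ T cells (SE 0.35, adjusted p = 0.592). None of the 3 calls of Btg1 held without either one of the STAT3-/-PD-1-/- libraries, although its direction did. Against WT in CD4+ T cells, the adjusted p by edgeR became 0.118 without STAT3-/-PD-1-/- replicate 1, 0.173 without replicate 2 and 0.0535 without WT replicate 1. For CD8+ T cells it became 0.0859 and 0.126 without STAT3-/-PD-1-/- replicate 1 and 2. Against STAT3-/- in CD8+ T cells it became 0.136 and 0.242 without these libraries and 0.108 without STAT3-/- replicate 1, where the log2 fold change was -0.83. By limma on the RPKM values this last call was also lost, with an adjusted p of 0.0660.

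Btg2 (chr1:134074865-134079155, - strand), a close relative of Btg1 and a target of p53, was at 424 and 173 CPM in WT CD4+ T cells, 425 and 226 CPM in STAT3-/- cells and 140 and 52.8 CPM in STAT3-/-PD-1-/- cells. The CD8+ levels were 290 and 93.2 CPM in WT, 282 and 130 CPM in STAT3-/- and 104 and 35.0 CPM in STAT3-/-PD-1-/- cells. The STAT3-/-PD-1-/- libraries were below the other 4 in CD4+ T cells, where WT and STAT3-/- overlapped, but in CD8+ T cells STAT3-/-PD-1-/- replicate 1 lay above WT replicate 2. The log2 fold change against WT was -1.61 in CD4+ (SE 0.56, adjusted p = 0.103) and -1.45 in CD8+ T cells (SE 0.67, adjusted p = 0.174), with neither past the test. With the replicate block both passed, with an adjusted p of 0.000606 in CD4+ and 0.00319 in CD8+ T cells. Against STAT3-/-, the log2 fold change was -1.74 in CD4+ (SE 0.56, adjusted p = 0.0877, or 0.000607 with the block) and -1.55 in CD8+ T cells (SE 0.67, adjusted p = 0.148, or 0.00289 with the block).

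Tob1 (chr11:94211454-94215492, + strand), a BTG/TOB protein known to restrain T cell proliferation, was at 91.5 and 40.5 CPM in WT CD4+ T cells, 85.3 and 37.1 CPM in STAT3-/- cells and 34.5 and 17.6 CPM in STAT3-/-PD-1-/- cells. Its CD8+ levels were 71.9 and 19.3 CPM in WT, 75.6 and 31.3 CPM in STAT3-/- and 23.6 and 10.7 CPM in STAT3-/-PD-1-/- cells. As for Btg2, the STAT3-/-PD-1-/- libraries were below all others in CD4+ T cells but overlapped WT in CD8+ T cells. The log2 fold change of Tob1 against WT was -1.32 in CD4+ (SE 0.51, adjusted p = 0.140) and -1.40 in CD8+ T cells (SE 0.67, adjusted p = 0.191). With the replicate block, Tob1 passed the test against WT with an adjusted p of 0.000815 in CD4+ and 0.00881 in CD8+ T cells. Against STAT3-/-, Tob1 had a log2 fold change of -1.21 (CD4+, SE 0.51) and -1.63 (CD8+, SE 0.68). Neither passed without the block, with an adjusted p of 0.164 (CD4+) and 0.137 (CD8+). With the block both passed, at 0.00165 (CD4+) and 0.00562 (CD8+).

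The replicates of these 3 genes differed in the same direction in every group. Replicate 1 exceeded replicate 2 in all 6 groups, on average by 0.68 for Btg1, 1.32 for Btg2 and 1.27 for Tob1 on the log2 scale. For Btg1 the gap was smallest in STAT3-/-PD-1-/- T cells, at 0.26 (CD4+) and 0.22 (CD8+). This spread entered the SE of each test made without the replicate block. Between libraries of the same number, the difference of Btg2 in STAT3-/-PD-1-/- against WT CD4+ T cells was -1.60 between the libraries numbered 1 and -1.71 between those numbered 2, and in CD8+ T cells -1.47 and -1.41. For Tob1 these differences were -1.41 and -1.20 in CD4+ and -1.61 and -0.84 in CD8+ T cells. For Btg1 they lay further apart than for Btg2, at -1.97 and -1.46 in CD4+ and -2.27 and -1.57 in CD8+ T cells. The labels do not say what a number shares beyond its run of identifiers, and what set replicate 1 apart from replicate 2 was not tested.

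**Figure D3:**
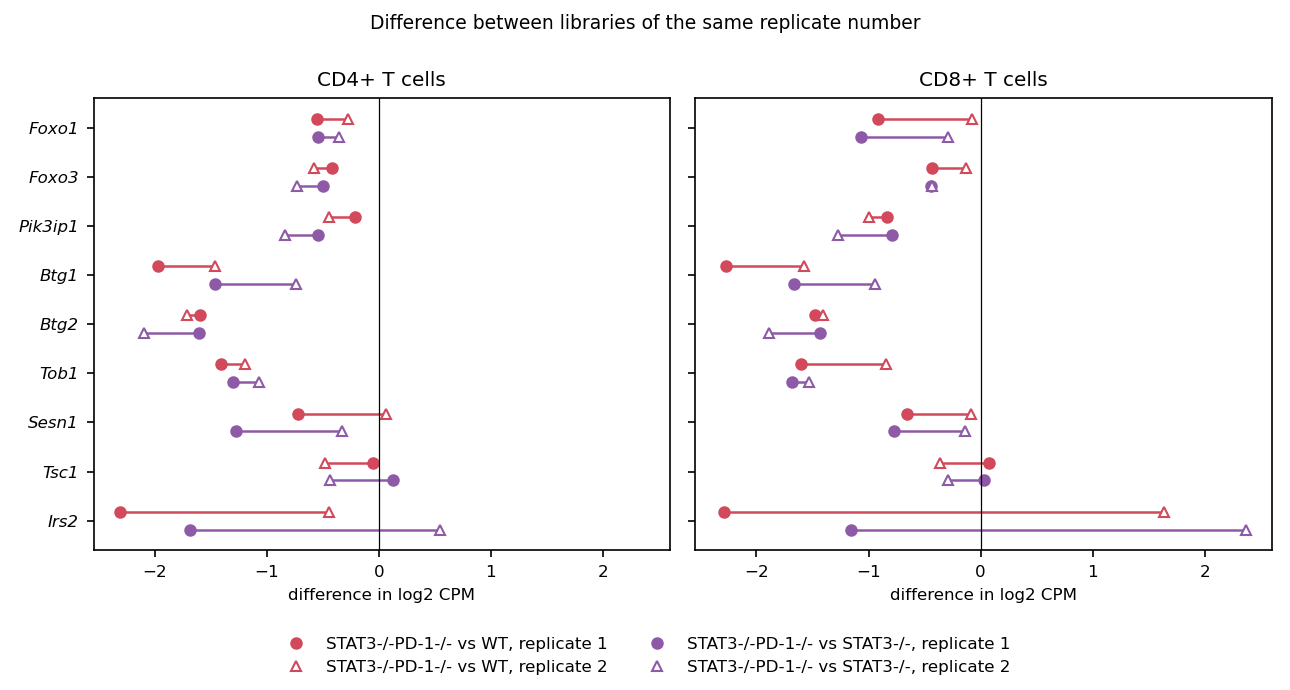
Difference in log2 CPM (x axis) between the STAT3-/-PD-1-/- library and the WT or STAT3-/- library that has the same replicate number, for the 9 genes in CD4+ and CD8+ T cells, with filled circles for number 1 and open triangles for number 2. Both points lie left of 0 for Foxo1, Foxo3, Pik3ip1, Btg1, Btg2 and Tob1 in all 4 comparisons, whereas points of Sesn1, Tsc1 and Irs2 lie on both sides in some.

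The promoters of the 3 BTG and TOB genes are shown because these genes, apart from the scarce Irs2, had the largest differences and moved together across libraries. The sequences come from RefSeq (GRCm38.p6), cover the 250 bases before the annotated start and are written 5′ to 3′ on the strand of the gene. Capitals mark a match to the FOXO core motif GTAAACA, which in Btg1 lies on the opposite strand and so reads as its reverse complement. The window of Btg1 is chr10:96616751-96617000 (+ strand), that of Btg2 is chr1:134079156-134079405 (- strand) and that of Tob1 is chr11:94211204-94211453 (+ strand).
Btg1: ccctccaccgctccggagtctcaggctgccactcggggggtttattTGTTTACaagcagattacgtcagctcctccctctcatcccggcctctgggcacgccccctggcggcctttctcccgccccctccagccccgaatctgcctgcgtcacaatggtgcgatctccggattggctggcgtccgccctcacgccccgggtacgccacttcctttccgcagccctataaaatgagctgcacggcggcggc
Btg2: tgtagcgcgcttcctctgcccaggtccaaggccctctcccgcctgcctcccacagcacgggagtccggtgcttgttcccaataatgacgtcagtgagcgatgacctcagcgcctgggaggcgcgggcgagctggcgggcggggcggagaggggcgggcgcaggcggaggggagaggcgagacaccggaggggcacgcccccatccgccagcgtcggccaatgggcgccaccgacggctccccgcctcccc
Tob1: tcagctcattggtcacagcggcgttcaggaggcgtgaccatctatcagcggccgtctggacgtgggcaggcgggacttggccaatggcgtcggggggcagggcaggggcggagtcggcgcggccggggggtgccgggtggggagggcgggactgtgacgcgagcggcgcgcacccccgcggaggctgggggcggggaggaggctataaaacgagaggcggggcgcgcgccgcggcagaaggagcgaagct
In windows of 300 bases, from 250 before to 50 after the start, the FOXO core GTAAACA on either strand was found in 3.65% of 32851 RefSeq promoters. Among the 9 genes it was found in 2: in Btg1, with its first base 204 bases before the start, and in Sesn1, 22 bases after the first of its 2 annotated starts. The STAT motif TTCNNNGAA was in 8.30% of all windows and in none of the 9 genes. The palindrome CACGTG was in 7.15% of all windows and, among the 9 genes, in Irs2 alone, 44 bases before its start. No 2 of these matches overlapped. A match describes letters in the window and not a bound site. The GC content of these 300-base windows was 64.7% for Btg1, 72.0% for Btg2 and 75.3% for Tob1, beside a median of 52.7% over all windows.

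Of the 2 brakes on mTORC1, neither passed the test against WT or STAT3-/- in the main fit (edgeR with TMM scaling and no block). Sesn1 was called against STAT3-/- in CD4+ T cells in 2 of 15 settings tried, the replicate block being 1 of them. Sesn1 (chr10:41810574-41908436, + strand), a stress-induced sestrin that holds mTORC1 back through GATOR2, was at 50.9 and 51.0 CPM in WT CD4+ T cells, 74.3 and 67.2 CPM in STAT3-/- cells and 30.8 and 53.4 CPM in STAT3-/-PD-1-/- cells. The STAT3-/- libraries were above all others, and the STAT3-/-PD-1-/- libraries fell on both sides of WT. Among CD8+ T cells Sesn1 was at 35.8 and 34.9 CPM in WT, 38.8 and 36.2 CPM in STAT3-/- and 22.7 and 32.8 CPM in STAT3-/-PD-1-/- cells, without overlap between the genotypes. The log2 fold change of STAT3-/-PD-1-/- against STAT3-/- was -0.73 in CD4+ (SE 0.25, adjusted p = 0.105, or 0.0372 with the replicate block) and -0.42 in CD8+ T cells (SE 0.19, adjusted p = 0.160). Against WT, Sesn1 had a log2 fold change of -0.25 in CD4+ (SE 0.25, adjusted p = 0.557) and -0.34 in CD8+ T cells (SE 0.19, adjusted p = 0.250).

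Tsc1 (chr2:28641233-28691172, + strand), a subunit of the complex that turns off RHEB, had log2 fold changes from -0.26 to -0.13 between STAT3-/-PD-1-/- T cells and the other genotypes, with adjusted p-values from 0.494 to 0.663 by edgeR. It was at 52.8 and 69.9 CPM in WT CD4+ T cells, 46.7 and 67.7 CPM in STAT3-/- cells and 50.8 and 50.1 CPM in STAT3-/-PD-1-/- cells. The CD8+ levels were 45.2 and 62.0 CPM in WT, 46.7 and 59.0 CPM in STAT3-/- and 47.6 and 48.03 CPM in STAT3-/-PD-1-/- cells. The STAT3-/-PD-1-/- libraries lay inside the range of the other genotypes in CD8+ T cells, and replicate 2 was above replicate 1 in all of the WT and STAT3-/- groups.

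Irs2 (chr8:10984681-11008929, - strand), an adaptor that links insulin and IGF receptors to PI3K and a known FOXO target, was scarce and uneven between replicates. It was at 10.0 and 1.06 CPM in WT CD4+ T cells, 6.45 and 0.489 CPM in STAT3-/- cells and 1.95 and 0.754 CPM in STAT3-/-PD-1-/- cells. The CD8+ levels were 13.1 and 0.599 CPM in WT, 5.91 and 0.327 CPM in STAT3-/- and 2.61 and 2.04 CPM in STAT3-/-PD-1-/- cells. Replicate 1 exceeded replicate 2 in all 6 groups, by 2.73 on average on the log2 scale, and the genotypes overlapped in both subsets. Between the libraries numbered 1 the difference of STAT3-/-PD-1-/- from WT was -2.29 in CD8+ T cells, and between those numbered 2 it was 1.63. The replicate block gave an adjusted p of 0.0411 against WT in CD4+ T cells (log2 fold change -1.66), where it was 0.332 without the block.

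CD8+ and CD4+ T cells were compared over the 3 genotypes. Of the 9 genes 1, Sesn1, was lower in CD8+ T cells (log2 fold change -0.68, SE 0.14, adjusted p = 0.00475 by edgeR), where 12.6% of all genes tested were lower and 25.5% were called. Sesn1 was lower in CD8+ T cells in each pair of libraries with the same genotype and number. Pik3ip1 had a log2 fold change of -0.51 (SE 0.18, adjusted p = 0.0622), and that of Foxo1 was -0.01 (SE 0.12). With the replicate block 4 of the 9 genes were lower in CD8+ T cells, where 17.5% of all genes tested were: Sesn1, Pik3ip1 (adjusted p = 0.000808), Btg2 (0.000361, and 0.346 without the block) and Tob1 (0.00406, and 0.476 without it). A block for each genotype and number, which treats the CD4+ and CD8+ libraries of a number as 1 pool of recipients, added Btg1 (adjusted p = 0.000812), where 23% of all genes tested were lower. Per the study, the CD8+ T cells came from the livers that gave the CD4+ T cells, but which libraries share a pool is not stated. The differences between genotypes were also set against each other in CD8+ and CD4+ T cells. No gene of the 9 passed that test for STAT3-/- against WT (0% of all genes called), for STAT3-/-PD-1-/- against WT (0.00811%) or for STAT3-/-PD-1-/- against STAT3-/- (0%). DESeq2 called none of the 9 there either. Without a block, 0 of the 9 had an unadjusted p under 0.05 by edgeR, as 228, 547 and 443 of all 12334 genes tested had in this order. The largest of these differences among the 9 genes was 0.94 on the log2 scale. With the replicate block, Pik3ip1 had an unadjusted p of 0.0184 by edgeR for STAT3-/-PD-1-/- against WT (adjusted p = 0.494), where 825 genes had one under 0.05. The largest difference was then 1.39 (Irs2, STAT3-/-PD-1-/- against STAT3-/-). With so few genes called in any of these tests, a like response of both subsets is not shown.

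Across the 12 libraries, with each subset centered on its own mean, Btg2 and Tob1 had the most similar profiles (r = 0.97), followed by Btg1 and Tob1 (r = 0.86) and Btg1 and Btg2 (r = 0.85). Tsc1 and Irs2 went in opposite directions (r = -0.73). These coefficients describe 12 libraries that share genotypes and replicate numbers. Among 8598 other genes, the closest profile to Btg2 was that of Fos (r = 0.99), an immediate early gene that tissue dissociation and sorting can induce. Per the study's methods, livers were mashed through a strainer, with no digestion described. What set the level of Fos here was not tested. The closest to Irs2 was Slc3a2 (r = 0.98), the heavy chain of amino acid transporters, and the closest to Tob1 was Mex3b (r = 0.98), an RNA-binding protein. The CD4+ levels of Fos were 213 ± 123 CPM in WT, 218 ± 124 CPM in STAT3-/- and 71.5 ± 46.7 CPM in STAT3-/-PD-1-/- cells (SD, n = 2). The part of such early genes in the levels of Btg2 and Tob1 was not tested. Foxo1 was closest to Ifnar1 (r = 0.97), a chain of the type I interferon receptor, Pik3ip1 to Gbp8 (r = 0.96), an interferon-induced guanylate-binding protein, and Sesn1 to Pdcd4 (r = 0.89), an inhibitor of translation. Foxo3 was closest to 4930402H24Rik (r = 0.98), Btg1 to Tmf1 (r = 0.98) and Tsc1 to Klc2 (r = 0.97).

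The wider pathways were described by 6 gene lists that hold none of the 9 genes. Like the 9 genes, the lists were chosen with earlier results of these data known, so their counts are a description and not a test. In STAT3-/-PD-1-/- against WT, 5.65% of all genes tested fell and 7.21% rose in CD4+ T cells, and 8.21% fell and 9.01% rose in CD8+ T cells, and the counts of each list are to be read beside these shares. Over all genes, the replicate block gave shares of 12.2% that fell and 13.8% that rose in CD4+ T cells, and 12.1% and 12.6% in CD8+ T cells. Among the called genes of the quiescence and FOXO target lists, more fell than rose. Of 26 T cell quiescence regulators tested, 8 fell and 0 rose in STAT3-/-PD-1-/- against WT CD4+ T cells (median log2 fold change -0.60), and 11 fell and 1 rose in CD8+ T cells (median -0.56). The replicate block gave 15 that fell and 1 that rose (CD4+), and 12 and 1 (CD8+). Of 33 known FOXO targets, 9 fell and 1 rose in CD4+ (median -0.56), and 7 fell and 1 rose in CD8+ T cells (median -0.38). For these the block gave 13 that fell and 1 that rose (CD4+), and 11 and 3 (CD8+). Between STAT3-/- and WT, edgeR without the block called 0 genes of all 6 lists in either subset. There 1 to 6 genes per list had an unadjusted p under 0.05, beside 1259 of all 11959 genes tested (CD4+) and 1315 of 12002 (CD8+). With the block it called 1 PI3K gene (higher) and 4 quiescence regulators (1 higher, 3 lower) in CD4+ T cells, and 0 in CD8+ T cells.

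Among the quiescence regulators, Tcf7, which encodes TCF-1 of naive and memory T cells, had a log2 fold change of -2.89 in CD4+ T cells with both deletions against WT (SE 0.24, adjusted p = 0.00208). The CD4+ levels of Tcf7 were 161 ± 38.8 CPM in WT, 92.8 ± 4.95 CPM in STAT3-/- and 21.3 ± 4.70 CPM in STAT3-/-PD-1-/- cells (SD, n = 2). Satb1, a chromatin organizer of T cells, fell by 1.26 (SE 0.17, adjusted p = 0.00692) in the same comparison. Among CD8+ T cells Klf3, a Krüppel-like repressor, fell by 1.34 (SE 0.28, adjusted p = 0.0197) and Slfn2, a Schlafen protein needed for T cell quiescence, fell by 1.29 (SE 0.23, adjusted p = 0.0135). Cblb, a ubiquitin ligase that limits T cell activation, rose by 0.40 (SE 0.11, adjusted p = 0.0492). Against STAT3-/- cells, Bach2, a repressor of effector genes, fell by 1.56 in CD4+ (SE 0.21, adjusted p = 0.00919) and Smad3, a mediator of TGF-β signaling, fell by 1.37 in CD8+ T cells (SE 0.14, adjusted p = 0.00357), by edgeR throughout.

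Among the FOXO targets, Foxp3, the factor of regulatory T cells, had a log2 fold change of -2.91 in CD4+ T cells with both deletions against WT (SE 0.31, adjusted p = 0.00395). The CD4+ levels of Foxp3 were 25.8 ± 6.88 CPM in WT, 20.7 ± 6.20 CPM in STAT3-/- and 3.39 ± 0.0277 CPM in STAT3-/-PD-1-/- cells (SD, n = 2). Sesn3, another sestrin, fell by 1.46 in CD4+ (SE 0.17, adjusted p = 0.00446) and by 0.79 in CD8+ T cells (SE 0.17, adjusted p = 0.0207). Sesn3 is thus a sestrin past the test in both subsets where Sesn1 was not, and the difference between the 2 genes was not tested. Tnfsf10, the death ligand TRAIL, fell by 1.29 in CD8+ T cells against WT (SE 0.19, adjusted p = 0.00802). S1pr1, the receptor for egress from lymphoid tissue, fell by 1.18 in CD8+ T cells against STAT3-/- (SE 0.22, adjusted p = 0.0174).

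Of 26 PI3K subunits, regulators and phosphatases, 2 rose and 2 fell against WT in CD4+ T cells, and 2 rose and 5 fell in CD8+ T cells. In the fit with the block, 2 rose and 8 fell (CD4+), and 2 rose and 6 fell (CD8+). Pik3r2, a regulatory subunit, rose by 1.36 (SE 0.24, adjusted p = 0.0131) and by 1.65 (SE 0.21, adjusted p = 0.00569) on the log2 scale, and Phlpp1, a phosphatase that dephosphorylates AKT, rose by 1.11 (SE 0.17, adjusted p = 0.00875) and by 1.29 (SE 0.14, adjusted p = 0.00414). Pik3cd, the catalytic subunit p110δ of lymphocytes, fell by 0.83 (SE 0.18, adjusted p = 0.0245) and by 0.83 (SE 0.11, adjusted p = 0.00604). Pik3c2a, a class II PI3K, fell by 0.89 in CD4+ T cells (SE 0.17, adjusted p = 0.0191), and Pik3ap1, an adaptor of PI3K, fell by 1.22 in CD8+ T cells (SE 0.16, adjusted p = 0.00589).

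Of the mTORC1 and mTORC2 list, 2 of 39 genes rose and 1 fell against WT in CD4+ T cells, and 3 of 40 rose and 2 fell in CD8+ T cells. The replicate block gave 2 that rose and 3 that fell (CD4+), and 4 and 3 (CD8+). Sesn3, named above as a FOXO target, is also in this list and is counted among its genes that fell in each subset. Prr5, a subunit of mTORC2, rose by 0.77 in CD4+ (SE 0.19, adjusted p = 0.0378) and by 0.93 in CD8+ T cells (SE 0.13, adjusted p = 0.00692). Tbc1d7, the third subunit of the TSC complex, rose by 0.88 (SE 0.19, adjusted p = 0.0267) and by 0.80 (SE 0.15, adjusted p = 0.0166), whereas Rheb, the GTPase that the complex turns off, fell by 0.58 in CD8+ T cells (SE 0.15, adjusted p = 0.0408). Of 17 insulin and IGF receptors and adaptors, 3 fell and 0 rose in CD4+ T cells, and 5 fell and 1 rose in CD8+ T cells. With the block, 8 fell and 0 rose (CD4+), and 7 fell and 1 rose (CD8+). Gab3, a docking protein of the same kind of pathway as Irs2, fell by 1.54 in CD4+ (SE 0.19, adjusted p = 0.00515) and by 1.85 in CD8+ T cells (SE 0.22, adjusted p = 0.00493).

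Of 21 other BTG/TOB and CCR4-NOT genes, 2 rose and 0 fell against WT in CD4+ T cells, and 3 rose and 0 fell in CD8+ T cells. Under the block, 4 rose and 2 fell (CD4+), and 5 rose and 0 fell (CD8+). Prmt1, an arginine methyltransferase that binds BTG proteins, rose by 0.63 in CD4+ (SE 0.16, adjusted p = 0.0402) and by 0.63 in CD8+ T cells (SE 0.13, adjusted p = 0.0186). Cnot10, a subunit of CCR4-NOT, rose by 0.61 in CD4+ T cells (SE 0.16, adjusted p = 0.0479). Pabpc4, a poly(A)-binding protein, rose by 1.00 in CD8+ T cells (SE 0.19, adjusted p = 0.0164).

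Leaving out 1 library was tried for the calls of the 6 lists with the largest changes (for each list and comparison, up to 2 in each direction whose log2 CPM averaged 3 or more), of which the genes named above are a part. Against WT, 12 of 14 calls in CD4+ T cells were lost without STAT3-/-PD-1-/- replicate 1, 13 without replicate 2, and 7 without either one of the WT libraries. Of 17 calls in CD8+ T cells, 6 were lost without STAT3-/-PD-1-/- replicate 1, 16 without replicate 2, 7 without WT replicate 1 and 6 without WT replicate 2. Against STAT3-/-, leaving out STAT3-/-PD-1-/- replicate 1 ended all 13 calls in CD4+ and 6 of 16 in CD8+ T cells, and leaving out replicate 2 ended all of them in both. Only Tcf7 in CD4+ and Phlpp1 in CD8+ T cells, each against WT, were still called whichever library was left out. The direction of these calls did not change in any of these fits.

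**Figure D4:**
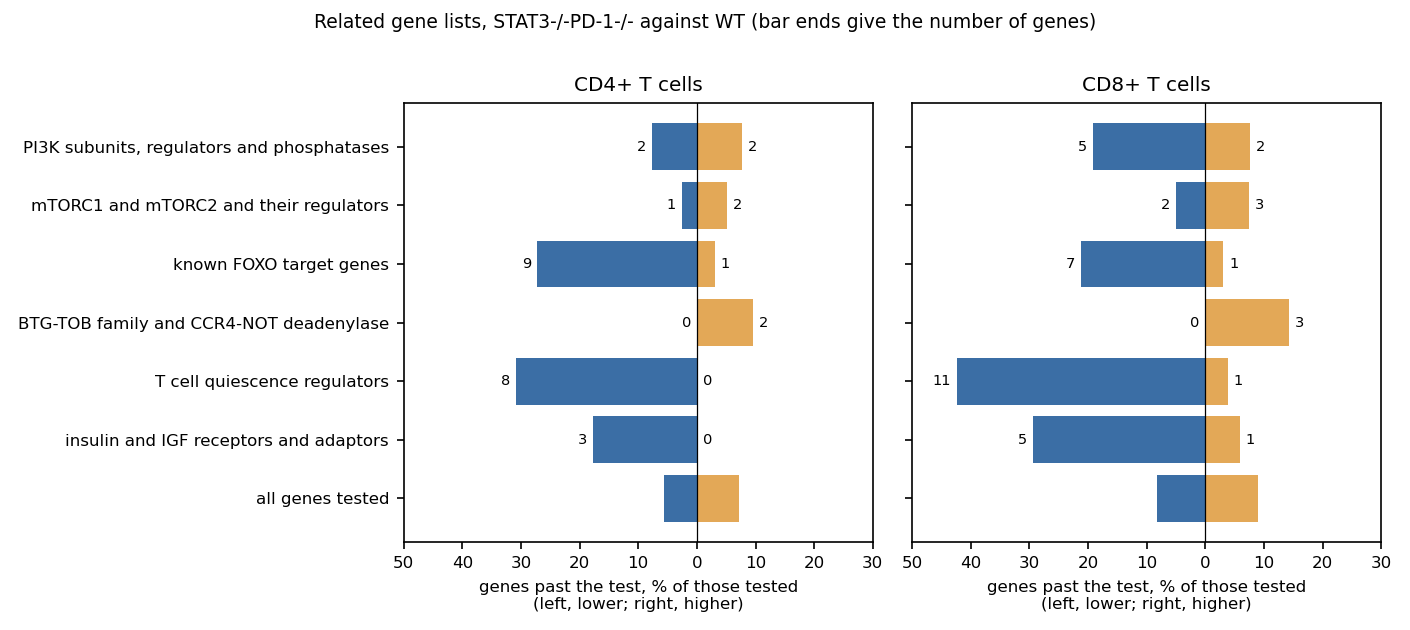
Share of genes past the test (x axis, percent of the genes tested in each list) in STAT3-/-PD-1-/- against WT, in CD4+ and CD8+ T cells, with lower genes to the left, higher genes to the right and their number at the end of each bar. The quiescence and FOXO target lists extend mainly to the left, with 8 and 9 genes lower in CD4+ and 11 and 7 in CD8+ T cells.

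Other measures moved with genotype beside these genes. All 16 genes of the proliferation list were higher in STAT3-/-PD-1-/- than in WT T cells, and 14 rose in CD4+ and 9 in CD8+ T cells (16 and 13 with the replicate block). Their summed level was 4326 and 3375 CPM in WT, 5055 and 4467 CPM in STAT3-/- and 6972 and 6455 CPM in STAT3-/-PD-1-/- CD4+ T cells. For CD8+ T cells it was 5970 and 5021 CPM in WT, 7799 and 7142 CPM in STAT3-/- and 7921 and 7285 CPM in STAT3-/-PD-1-/- cells. The most abundant of them was Mki67, at 1448 to 3048 CPM. As compared with STAT3-/- cells, 7 of the 16 rose in CD4+ T cells, where 723 of all 11959 genes tested rose. EdgeR called 0 of the 16 in CD8+ T cells, where 1051 of all 12002 genes tested rose. There 2 had an unadjusted p under 0.05 by edgeR, as had 4128 of all 12002 genes tested. The block gave 14 that rose (CD4+) and 2 (CD8+), beside 1580 (CD4+) and 1498 (CD8+) of all genes tested. The part of cell division in the levels of the 9 genes was not tested.

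Genes that mark the sorted subsets, the coreceptors Cd4, Cd8a and Cd8b1 among them, also fell with both deletions against WT. Of the 4 genes of the CD8 subset list, 2 fell against WT in CD8+ T cells (3 with the replicate block): Cd8a, at 1265 ± 105 CPM in WT, 1103 ± 114 CPM in STAT3-/- and 592 ± 4.14 CPM in STAT3-/-PD-1-/- cells, and Cd8b1, at 1044 ± 16.5, 1110 ± 104 and 569 ± 21.4 CPM (SD, n = 2). Of the 3 genes of the CD4 subset list, 2 fell against WT in CD4+ T cells: Cd40lg, with a log2 fold change of -1.01 (SE 0.20, adjusted p = 0.0200), and Cd4, at 1862 ± 26.3 CPM in WT, 1791 ± 136 CPM in STAT3-/- and 1282 ± 57.9 CPM in STAT3-/-PD-1-/- cells. In the CD4+ libraries 1 gene of the CD8 subset list rose against WT (2 with the block). Their part in the levels of the 9 genes was not tested.

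Transcripts of other cell types were scarce. The summed level of 22 hepatocyte genes was 1.73 to 7.22 CPM (highest Trf, at most 2.69 CPM, with Ass1 at 0 in all 12 libraries), and that of 9 erythroid genes at most 0.736 CPM, with Alas2 at most 0.562 CPM and the globin genes at 0. The 14 monocyte and macrophage genes summed to 57.9 and 75.2 CPM in WT, 47.6 and 60.7 CPM in STAT3-/- and 22.1 and 19.1 CPM in STAT3-/-PD-1-/- CD4+ T cells. For CD8+ T cells they summed to 98.8 and 106 CPM in WT, 82.2 and 105 CPM in STAT3-/- and 26.0 and 26.2 CPM in STAT3-/-PD-1-/- cells. The highest of them was Itgam, at 6.49 to 69.9 CPM, while Adgre1 was at most 0.622 CPM and at 0 in 2 libraries. Of the 9 of these genes tested, 1 fell in CD4+ and 2 fell in CD8+ T cells with both deletions against WT (3 and 5 with the replicate block). The 9 neutrophil genes, led by Mmp9 and with Elane at 0 in all 12 libraries, summed to 14.7 and 23.2 CPM in WT, 2.40 and 6.93 CPM in STAT3-/- and 0.822 and 1.31 CPM in STAT3-/-PD-1-/- CD4+ T cells. Their CD8+ sums were 2.93 and 2.32 CPM in WT, 0.388 and 1.31 CPM in STAT3-/- and 0.398 and 0.816 CPM in STAT3-/-PD-1-/- cells. Mmp9, the only one of them tested, fell against WT in both subsets. The 9 B cell genes, led by Cd22 and with Ms4a1 at 0 in all 12, summed to 10.3 and 18.8 CPM in WT, 33.7 and 42.3 CPM in STAT3-/- and 43.7 and 44.7 CPM in STAT3-/-PD-1-/- CD4+ T cells. In the CD8+ libraries they summed to 25.5 ± 0.720 CPM in WT, 26.9 ± 2.51 CPM in STAT3-/- and 20.4 ± 0.221 CPM in STAT3-/-PD-1-/- cells (SD, n = 2). Against WT, Cd22 rose in CD4+ and Cd79b fell in CD8+ T cells. The 9 endothelial genes summed to 111 to 198 CPM, nearly all of it Pecam1, which T cells also express. The 10 genes of the T cell list summed to 5066 to 7376 CPM, led by Thy1. Both STAT3-/-PD-1-/- sums were below both WT sums in each subset, and of the 10 genes 1 (CD4+) and 5 (CD8+) fell (5 and 6 with the replicate block). The part of these cells in the levels of the 9 genes was not tested.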

How the data were processed

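RNA-seq measured 12 libraries of sorted donor T cells, 2 per genotype and subset. Per the file headers, the authors deposited a table of read counts per gene with the exon length of each gene, and a second table of RPKM values. Reads had been aligned with STAR and counted over RefSeq genes with HTSeq-count, per the study's methods; the submitters' processing notes name the builds GRCm38 and mm10. Columns of samples left unused numbered 0. The labels also carry a culture protocol for adipogenic cells, which does not describe sorted T cells and was not used. The strand setting of the counting is not known here; Pik3ip1 overlaps Mir3470a, a gene with at most 1 read per library.

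Counts were tested in R 4.3.3 with edgeR 4.0.16 (TMM factors, filterByExpr with a minimum count of 10 and a minimum total of 15, quasi-likelihood F test, Benjamini-Hochberg adjustment over all genes tested), with 1 fit per subset over its 3 genotypes (11959 genes in CD4+ and 12002 in CD8+ T cells) and 1 over all 12 libraries for CD8+ against CD4+ (12334 genes). DESeq2 1.42.0, limma 3.58.1 on log2(RPKM + 1), other scaling, filters, the 4 libraries of a comparison alone, replicate and pool blocks and each library left out were the alternatives. An exact permutation test of 2 against 2 libraries cannot go below p = 0.333, so none was used. P-values measure the spread between pooled libraries. The sample titles put the libraries numbered 1 in 1 run of consecutive identifiers and those numbered 2 in another. For this reason, values with the replicate number as a block stand beside those without it where a call among the 9 genes, or a list's count against WT, changed. Deviations of same-numbered libraries from their group means were compared between genotypes by their correlation (r). The pair of WT and STAT3-/- had an r of 0.66 (CD4+) and 0.68 (CD8+). Pairs with STAT3-/-PD-1-/- had lower values: 0.32 (CD4+) and 0.18 (CD8+) with WT, and 0.21 (CD4+) and 0.06 (CD8+) with STAT3-/-. Among the 9 genes, all calls that the block added between genotypes were in comparisons with STAT3-/-PD-1-/- T cells, where r was lower.

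The 9 genes and all lists were chosen with earlier results of these data known. For each list and comparison, the 2 called genes with the largest change in each direction and a mean log2 CPM of at least 3 were eligible to be named; the profile likeness is Pearson's r of log2 CPM (prior count 2) over the 12 libraries, centered within each subset. Promoters came from RefSeq (GRCm38.p6), and all 9 genes were matched. Figures used matplotlib 3.10.9.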

Additional observations from a re-analysis of the deposited data

How the results depend on the processing

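Each group had 2 pooled libraries, and Irs2 had only 8 to 294 reads per library. All 9 genes (8 where Irs2 was filtered out) kept lower levels in STAT3-/-PD-1-/- T cells in all 4 comparisons under every alternative other than leaving out a library, apart from Irs2 against STAT3-/- in CD8+ T cells, whose log2 fold change was 0.48 with the replicate block. No member was called between STAT3-/- and WT, or for a difference between subsets, under any alternative. The replicate block ended no call made without it among the 9 genes and the named genes of the lists.

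The number of the 9 genes called, always lower, was 1 against WT in CD4+ T cells and became 3 with no filter on low counts, 3 with only the 4 libraries compared, 6 with the replicate block and 0 to 3 with a library left out. Against STAT3-/- in CD4+ T cells it was 0 and became 5 with DESeq2, 2 with no filter, 2 with 4 libraries, 7 with the block and 0 to 2 with a library left out. In CD8+ T cells against WT it was 1 and became 2 with DESeq2, 2 with no filter, 2 with 4 libraries, 4 with the block and 0 to 2 with a library left out. Against STAT3-/- in CD8+ T cells it was 1 and became 3, 5, 4, 4 and 0 to 4 in the same order. For CD8+ against CD4+ it was 1 and became 2 with DESeq2, 2 with no filter, 5 with a block for the pool, 4 with the replicate block and 1 to 2 with a library left out. Genes called lower over all genes also shifted. In CD4+ T cells against WT they numbered 676, and 863 with no filter, 919 with 4 libraries and 1458 with the block. Against STAT3-/- they numbered 601, and 1028 with DESeq2, 822, 558 and 1525 in that order. In CD8+ T cells they went from 985 to 1359, 1198, 942 and 1448 against WT, and from 966 to 1440, 1283, 944 and 1434 against STAT3-/-. For CD8+ against CD4+ they numbered 1551, and 1649 with DESeq2, 1554 with no filter, 2842 with the pool block and 2163 with the replicate block. The cause of these shifts was not tested.

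Leaving out each library turned the direction of these log2 fold changes, given as lowest and highest value. Between STAT3-/- and WT in CD4+ T cells they ran from -0.38 to 0.90 for Btg2, -0.042 to 0.12 for Foxo1, -3.46 to 1.69 for Irs2, -0.81 to 0.59 for Tob1 and -0.40 to 0.16 for Tsc1. In CD8+ T cells they ran from -0.55 to 1.13 for Btg2, -0.10 to 0.50 for Foxo1, -4.35 to 2.35 for Irs2, -0.38 to 0.55 for Pik3ip1, -0.53 to 1.46 for Tob1 and -0.24 to 0.23 for Tsc1. Against WT, STAT3-/-PD-1-/- values ran from -2.87 to 0.35 for Irs2 and -0.72 to 0.10 for Sesn1 in CD4+, and from -2.49 to 1.94 for Irs2 and -0.37 to 0.081 for Tsc1 in CD8+ T cells. Against STAT3-/- they ran from -2.24 to 1.45 for Irs2 and -0.42 to 0.14 for Tsc1 in CD4+, and from -1.33 to 2.81 for Irs2 and -0.30 to 0.049 for Tsc1 in CD8+ T cells. CD8+ against CD4+ ranged from -0.12 to 0.073 for Foxo1 and -0.85 to 1.24 for Irs2.

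Over all genes tested, the count of calls also depended on the setting. Between STAT3-/- and WT it was 40 in CD4+ T cells (271 with DESeq2, 165 with no filter, 1 with 4 libraries, 303 with the block) and 7 in CD8+ T cells (218 with DESeq2, 66 with no filter, 0 with 4 libraries). With a library left out it ran from 1 to 49 in CD4+ (1 without either STAT3-/-PD-1-/- library, 9 without WT replicate 2) and from 0 to 2 in CD8+ T cells. In CD4+ T cells with both deletions it was 1538 against WT (3104 with the block) and 1324 against STAT3-/- (2100 with DESeq2, 3105 with the block). With a library left out it ran from 62 to 1947 and from 0 to 1212 in CD4+ T cells, and from 111 to 1908 (2066 with all) and 2 to 1878 (2017 with all) in CD8+ T cells. For CD8+ against CD4+ it was 3145 (3384 with DESeq2, 3135 with no filter, 5590 with the pool block, 4359 with the replicate block). For the difference between subsets in both deletions against WT it was 1 (75 with DESeq2, 50 with no filter, 84 with the pool block, 28 with the replicate block). For that difference against STAT3-/- it was 0 (21 with DESeq2, 9 with no filter, 22 with the pool block). Scaling by library totals raised the share of higher genes among the calls against STAT3-/- from 54.6% to 65.9% in CD4+ and from 52.1% to 67.0% in CD8+ T cells, and against WT in CD8+ T cells from 52.3% to 64.8%.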
